A study of Rattus norvegicus with 16 samples.

Results

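The prostanoid receptors, the cyclooxygenases and the inducible prostaglandin E synthase were followed in the lungs and adipose tissue of 8 male Brown Norway rats. The age given for the rats, 7 weeks, is that before sensitization and challenge. The group holds 10 genes, which are the receptors Ptger1, Ptger2, Ptger3, Ptger4, Ptgdr, Ptgir and Tbxa2r and the enzymes Ptgs1, Ptgs2 and Ptges. They were chosen by name. A probe was assigned to a gene when the RefSeq transcript given in the array design belongs to that symbol in the GRCr8 gene table, and this gave 14 probes for the 10 genes, among 16678 named genes and 45598 probes in all. Of several probes of a gene, the one with the highest mean in the tissue stands for the gene unless another is named. The 5 HDM rats were sensitized under the skin with 45 µg of house dust mite (HDM) in aluminium hydroxide each week for 3 weeks. They were then challenged through the nose with 120 µg of HDM 3 times a week for 3 weeks. The 3 control rats received aluminium hydroxide in saline and then saline alone, so the adjuvant was common to both groups. The model is 1 protocol at 1 time point in males of 1 inbred strain, and whole pieces of tissue were measured on 1-color arrays, 1 array per rat and tissue.

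Prostanoids are lipid mediators made from arachidonic acid that phospholipases release from membranes. The cyclooxygenases Ptgs1, which most tissues express steadily, and Ptgs2, which inflammatory signals induce, make the common precursor, and terminal synthases such as Ptges turn it into prostaglandin E2, prostaglandin D2, prostacyclin or thromboxane. Each product acts on its own G protein-coupled receptors. In airways, prostaglandin E2 and prostacyclin are known for relaxing smooth muscle and restraining inflammation, whereas prostaglandin D2 and thromboxane are known as constrictors that mast cells and platelets release in allergy. In fat, prostaglandin E2 is known for holding back lipolysis through Ptger3.

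Values are log2 signals relative to the 75th percentile of the array, so that a value of 0 is the 75th percentile itself. Between 62.1% and 68.8% of the probes of a lung array and between 50.5% and 60.3% of the probes of an adipose array were well above background, the mark that Feature Extraction gives to a spot clearly brighter than its surroundings. A probe without this mark on an array is called dim there. Within each tissue the groups were compared by limma, with Benjamini–Hochberg adjustment over all 45598 probes. A probe was called at an adjusted p below 0.05 and a fold change above 1.5. On the slide of each tissue, HDM rats 1 to 4 lay in row 1, and HDM rat 5 and the 3 control rats in row 2. Treatment and slide row therefore largely coincide, and a fit with the row as a block rests on HDM rat 5 against the control rats. Nothing in the labels says that rats were other than separate animals. The number of arrays limits the precision, and with 5 rats against 3 the smallest possible p of the two-sided exact permutation test is 0.0179.

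The tissues carried their own markers. All 8 measured genes of the lung epithelium list (surfactant proteins, Scgb1a1, Foxj1, Ager and Epcam) were well above background on all 8 lung arrays, with Sftpc as the brightest. All 8 genes of the adipocyte list (Adipoq, Plin1, Fabp4, Lep, Cidec, Lipe, Retn and Cfd) were well above background on all 8 adipose arrays, with Cfd as the brightest. The adipose tissue of HDM rat 1 and of control rat 1 stood apart from the others in a list of epididymis genes. All 8 measured genes of that list were well above background in each of these rats, and between 0 and 3 of them in the other rats. The log2 of the summed level of the list was 11.68 in HDM rat 1 and 11.90 in control rat 1. It was −2.09, −2.26, −1.02 and 1.95 in HDM rats 2 to 5 and −0.94 and 4.84 in control rats 2 and 3. Lcn5 was the brightest gene of the list. Adipose results are therefore given with and without both rats numbered 1 where these decide a value.

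In lung, none of the 10 genes was called with HDM, where 0.855% of all probes were called (390 of 45598, 220 higher and 170 lower). At an unadjusted limma p below 0.05, Ptger1 and Ptger2 were higher in HDM rats and no member was lower, 2 of 10 genes beside 10.2% of all probes. The count of 2 fell to 0 without control rat 2 and to 1 without HDM rat 3, HDM rat 4 or control rat 3, each left out alone. The median log2 fold change was 0.19 over the 10 genes and −0.01 over all 16678 named genes, and without the dim Ptgs2 it was 0.15 over 9 members. Ptger2 was the only member of which all HDM rats lay on 1 side of all control rats by the brightest probe, and 9.61% of the probes with a value on all 8 lung arrays separated the groups in this way.

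**Figure D1:**
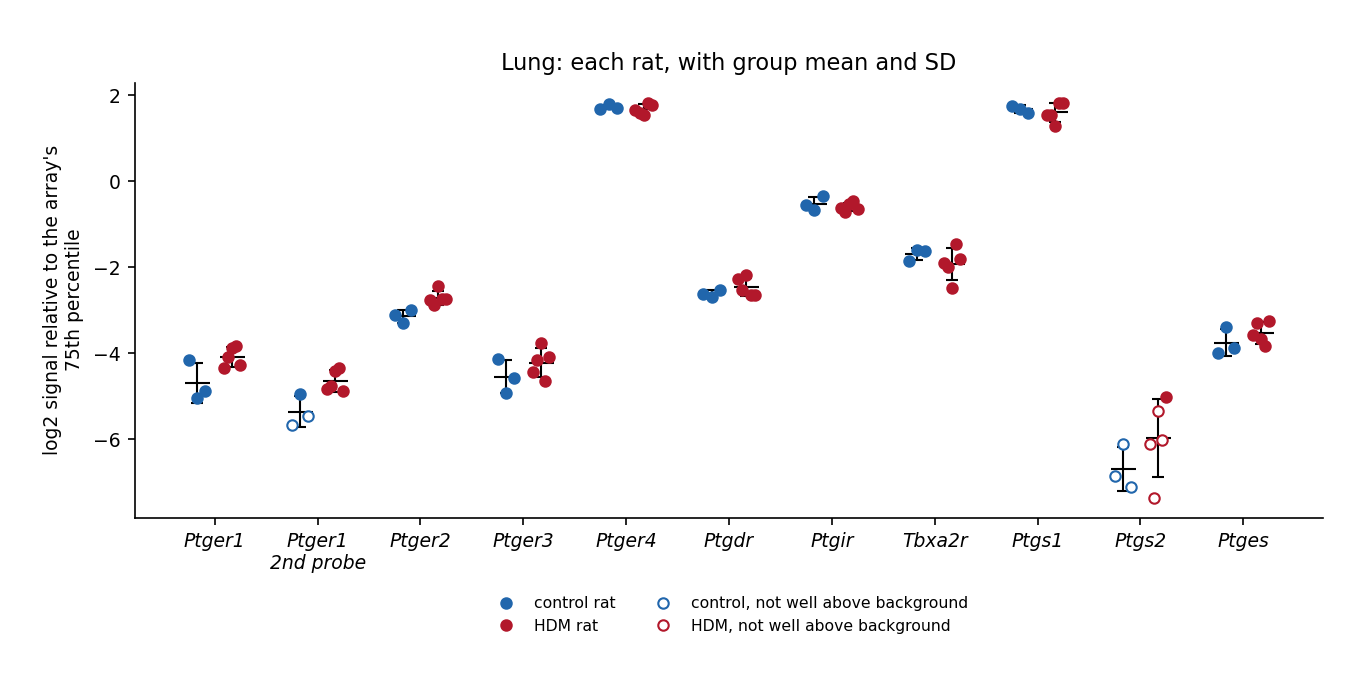
Level of each gene in lung, as log2 signal relative to the 75th percentile of the array (vertical axis), for control rats (blue, n = 3) and HDM rats (red, n = 5); open circles are not well above background, and bars are the group mean and SD. Ptger2 and the weaker probe of Ptger1 separate the groups, whereas the other genes overlap, and Ptgs2 is open in all rats but HDM rat 5.

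Ptger1 encodes EP1, the prostaglandin E2 receptor that raises intracellular calcium. By its brightest probe (A_64_P062638) the lung level was −4.34, −4.09, −3.89, −3.84 and −4.28 in HDM rats 1 to 5 and −4.16, −5.04 and −4.89 in control rats 1 to 3. The groups overlapped, because control rat 1 was higher than HDM rats 1 and 5. The probe was well above background on all 8 arrays, but its signal was low. On the linear scale it was 19.4, 25.4, 25.4, 31.4 and 25.1 in HDM rats and 21.7, 13.3 and 13.1 in control rats. The 75th percentile of these arrays lay between 376 and 488. The log2 fold change was 0.61 (SE 0.22, 95% confidence interval 0.09 to 1.12, 3 of 5 HDM rats above all controls) with a limma adjusted p of 0.385, and the exact permutation p was 0.0536. Its weaker probe (A_44_P208127) gave −4.83, −4.77, −4.41, −4.34 and −4.89 in HDM rats and −5.67, −4.96 and −5.46 in control rats. Here all 5 HDM rats lay above all 3 control rats, although this probe was well above background in only 1 of the control rats. The log2 fold change was 0.71 (SE 0.21) with a limma adjusted p of 0.225 and an exact permutation p of 0.0179. In row 2 of the slide, which held HDM rat 5 and the 3 control rats, the change by the brightest probe was 0.41, and blocking on the row gave a limma adjusted p of 0.908. After normexp background correction with quantile normalization it was 0.087.

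Ptger2 encodes EP2, which raises cyclic AMP and relaxes airway smooth muscle. Its lung level was −2.78, −2.87, −2.45, −2.73 and −2.75 in HDM rats and −3.12, −3.31 and −3.00 in control rats. All HDM rats lay above all control rats. The log2 fold change was 0.43 (SE 0.13, 95% confidence interval 0.13 to 0.73), a fold change of 1.35 that lies under the threshold, with a limma adjusted p of 0.258 and an exact permutation p of 0.0179. The row as a block left it at 0.39 with an adjusted p of 0.823 in limma, and normexp with quantile normalization gave 0.21. Over all alternatives it ranged from 0.21 to 0.50, with limma adjusted p from 0.102 to 0.823.

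Ptger3 encodes EP3, which lowers cyclic AMP, and its lung level ranged from −4.64 to −3.78 in HDM rats and from −4.93 to −4.14 in control rats. The change was 0.33 (SE 0.24, 95% confidence interval −0.23 to 0.88). Ptger4 encodes EP4, the other receptor of this family that raises cyclic AMP. Its lung values lay close together, between 1.53 and 1.82 in HDM rats and between 1.69 and 1.79 in control rats, and its change was −0.05 (SE 0.11, 95% confidence interval −0.30 to 0.19). That interval ends well short of a 1.5-fold change in either direction. Neither gene passed a test, with limma adjusted p of 0.801 for Ptger3 and 0.98 for Ptger4.

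The receptors of the other prostanoids gave no call either. Ptgdr encodes DP1, a prostaglandin D2 receptor that raises cyclic AMP, and changed by 0.15 (SE 0.14, limma adjusted p = 0.867). Ptgir, the prostacyclin receptor, ranged from −0.71 to −0.46 in HDM rats and from −0.66 to −0.35 in control rats. Its change was −0.08 (SE 0.11, 95% confidence interval −0.34 to 0.19). Tbxa2r, the thromboxane receptor, was −1.90, −1.99, −2.48, −1.47 and −1.80 in HDM rats and −1.87, −1.60 and −1.63 in control rats, a difference of −0.23 (SE 0.21). The range of the HDM rats enclosed that of the control rats, and the limma adjusted p was 0.87.

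Among the enzymes, Ptgs1 was a bright probe in lung, with 1.54, 1.53, 1.28, 1.82 and 1.82 in HDM rats and 1.75, 1.69 and 1.58 in control rats. The groups overlapped, and the change was −0.07 (SE 0.15, 95% confidence interval −0.41 to 0.27). Ptgs2 was at the other end. Its linear signal in lung was 5.7, 2.6, 9.2, 7.0 and 14.9 in HDM rats and 3.3, 6.3 and 2.8 in control rats, on arrays whose 75th percentile lay between 376 and 488. Only HDM rat 5, which had the highest signal, was well above background, so no fold change is given for Ptgs2. Ptges, the inducible synthase of prostaglandin E2 that works beside Ptgs2, was well above background on all lung arrays, with a change of 0.23 (SE 0.19) and a limma adjusted p of 0.846.

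Inflammatory cell markers moved in the same lung samples. Of the neutrophil list, 7 of 8 genes were measured, and all 7 were higher in HDM rats at an unadjusted limma p below 0.05, 5 of them called, with a median log2 fold change of 2.46. The log2 of the summed level of that list was 7.54, 7.14, 8.08, 7.21 and 6.95 in HDM rats and 3.33, 3.39 and 3.04 in control rats, with S100a9 as the brightest gene. Ngp alone was dim in all 3 control rats, and it was well above background in 2 of 5 HDM rats. Of the eosinophil list, Il5ra was dim on all 8 arrays, and the 6 other genes had positive changes with a median of 1.26, 1 of which, Siglec5, was called. Prg3 and Epx were dim in all 3 control rats. The mast cell list had a median of 0.12 with none called, 6 changes positive and those of Kit (−0.36) and Tpsb2 (−0.07) negative. Its histamine-producing enzyme Hdc was the only gene of the list to separate the groups, with a change of 0.87 (limma adjusted p = 0.123). The platelet list had a median of 0.16 over the 4 genes above background (Gp1ba was dim on all 8 arrays), and all 8 genes of the lung epithelium list had negative changes with a median of −0.18. The part of these cells in the higher Ptger1 and Ptger2 signals was not tested. All 8 genes of the adipocyte list also had positive changes in lung (median 0.60, none called). The log2 of their summed level was 4.55, 4.73, 3.86, 3.27 and 5.21 in HDM rats and 3.46, 3.06 and 4.22 in control rats. Its part in the lung signals of Ptges and Ptger3, which were higher in adipose tissue (below), was not tested. In a whole piece of tissue, a change in the number of cells of a type and a change in RNA per cell cannot be told apart.

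In adipose tissue, none of the 10 genes was called either, and the share of all probes called was 0% (0 of 45598, smallest limma adjusted p = 0.0853; 4515 probes, 9.9%, had an unadjusted p below 0.05). At that unadjusted p, Ptger1 was lower and Ptges was higher. The count of 2 members fell to 1 without HDM rat 3, HDM rat 5 or control rat 3, each left out alone. The median log2 fold change was −0.19 over the members and −0.05 over all named genes. Over genes well above background on at least 2 of the 8 arrays, which leaves out Ptger1 and Ptgs2, it was −0.028 over 8 members and 0.014 over 12518 named genes. Ptger1 was the only member whose groups did not overlap, and 6.26% of the probes with a value on all 8 arrays separated the groups. The median over all adipose probes was −0.15, and 0.001 with dim probes left out. Scaling each array to its own median moved the change of every probe by the same amount and gave a median of 0.14. The sign of small changes in this tissue thus depends on the scaling.

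**Figure D2:**
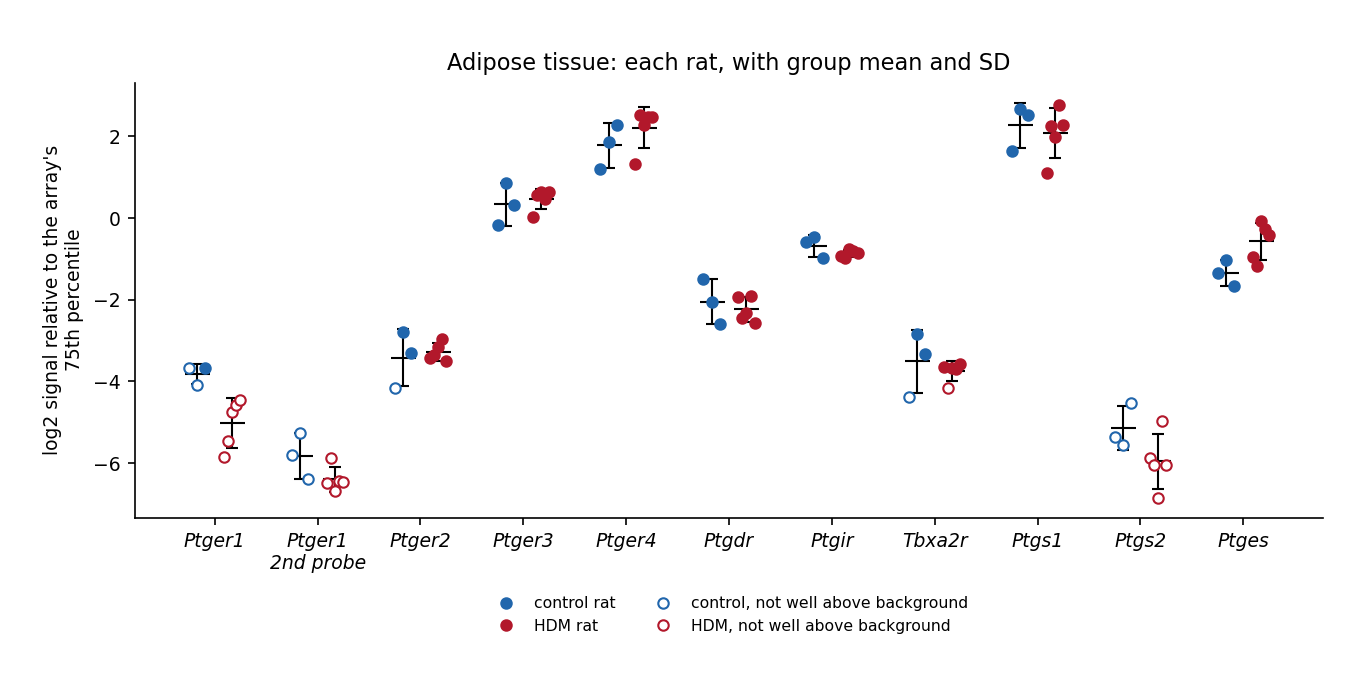
Level of each gene in adipose tissue, as log2 signal relative to the 75th percentile of the array (vertical axis), for control rats (blue, n = 3) and HDM rats (red, n = 5); open circles are not well above background, and bars are the group mean and SD. Ptger1 and Ptgs2 are almost all open circles, and 4 of 5 HDM rats lie above all control rats for Ptges.

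The Ptger1 signal in adipose tissue was −5.85, −5.46, −4.75, −4.58 and −4.45 in HDM rats and −3.68, −4.09 and −3.66 in control rats. All HDM rats lay below all control rats, but no HDM rat and only control rat 3 was well above background. The limma adjusted p was 0.371 and the exact permutation p was 0.0357. On the linear scale the signals were 3.0, 5.5, 7.7, 7.8 and 7.7 in HDM rats and 8.7, 8.2 and 17.9 in control rats, before division by a 75th percentile that itself lay between 111 and 240. No fold change is given for it in adipose tissue. The weaker probe was dim on all 8 adipose arrays.

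Ptges was −0.94, −1.17, −0.08, −0.26 and −0.42 in HDM rats and −1.34, −1.03 and −1.66 in control rats. All rats were well above background, and the groups overlapped only because HDM rat 2 lay below control rat 2. The log2 fold change was 0.77 (SE 0.30, 95% confidence interval 0.09 to 1.45, 4 of 5 HDM rats above all controls), a 1.70-fold difference with a limma adjusted p of 0.463 and an exact permutation p of 0.0536. Without both rats numbered 1, which carried the epididymis genes, it was 0.86, and under all alternatives it stayed positive, from 0.46 to 1.06. The macrophage list had positive changes in all 8 genes (median 0.54, none called), and the log2 of its summed level was 6.30 to 7.43 in HDM rats and 6.30 to 6.87 in control rats, with Lyz2 as the brightest gene. Part of the neutrophil list was higher in the HDM rats of these samples too, without a call. The log2 of the summed level of the list was 2.31, 2.64, 3.17, 1.89 and 1.81 in HDM rats and −0.75, 0.40 and −0.45 in control rats, so the groups did not overlap. Of the 7 measured genes of that list, 3 (S100a8, S100a9 and Csf3r, the latter dim in all 3 control rats) were higher at an unadjusted limma p below 0.05, none was called, and 5 had positive and 2 negative changes. Camp, well above background on 4 arrays, had a change of −0.61 with overlapping groups. S100a9, the brightest, had a change of 3.83 (SE 0.33, limma adjusted p = 0.0853), the lowest p of all adipose probes, whereas Mmp8 and Ngp were dim on all 8 adipose arrays. The part of macrophages and neutrophils in the Ptges signal was not tested.

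**Figure D3:**
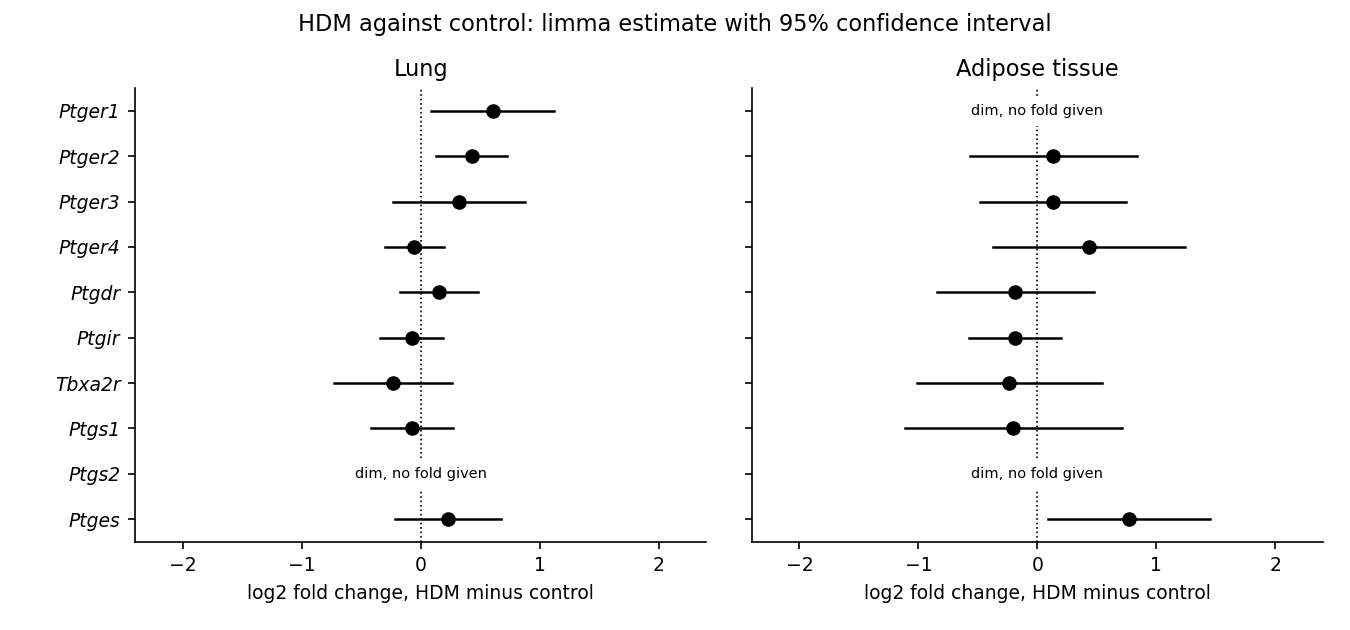
Log2 fold change of HDM against control rats (horizontal axis; points are limma estimates and lines their 95% confidence intervals) for the genes in lung (left) and adipose tissue (right); Ptgs2, and in adipose tissue Ptger1, are left out because they were dim on 7 or 8 of 8 arrays. The interval lies above 0 for Ptger1 and Ptger2 in lung and for Ptges in adipose tissue, but no adjusted p was below 0.05.

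The other receptors and Ptgs1 did not differ between the groups of adipose samples beyond the spread of the rats. Ptger3 was 0.027, 0.56, 0.64, 0.47 and 0.64 in HDM rats and −0.18, 0.86 and 0.32 in control rats. Its lowest value in each group was that of rat 1, and its change was 0.13 (SE 0.26, limma adjusted p = 0.87). Ptger4 was 1.33, 2.52, 2.27, 2.47 and 2.47 in HDM rats and 1.202, 1.85 and 2.28 in control rats, again lowest in the rats numbered 1. The change was 0.43 (SE 0.35, limma adjusted p = 0.753), and it ranged from 0.15 to 0.68 with 1 rat left out at a time. Ptger2 had a change of 0.13 (SE 0.30) that turned to −0.20 without both rats numbered 1.

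**Figure D4:**
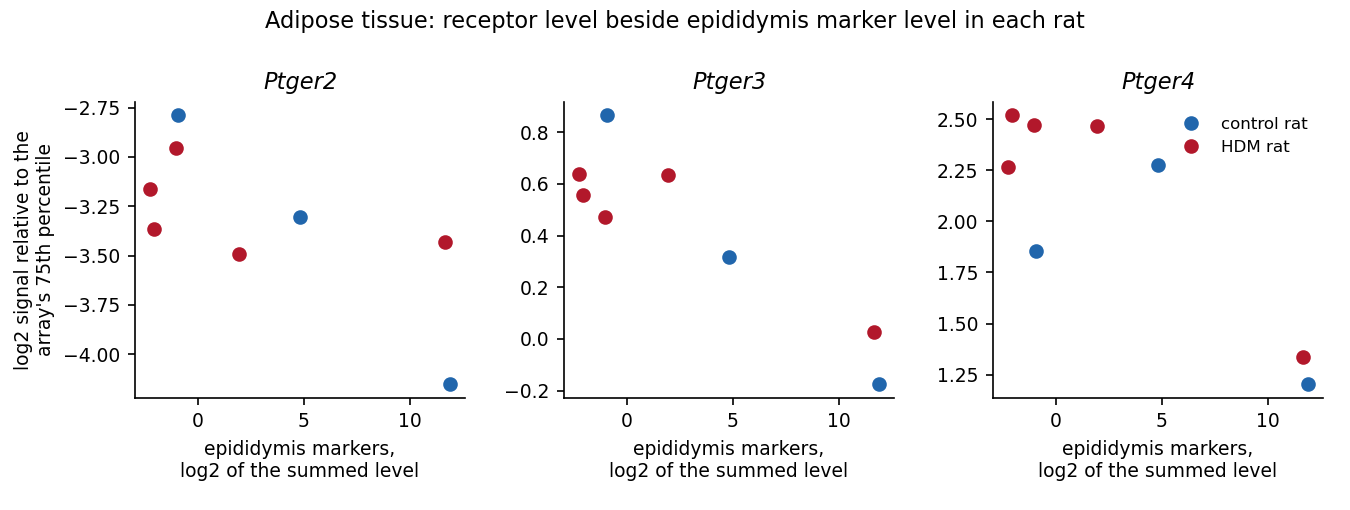
Log2 signal of Ptger2, Ptger3 and Ptger4 in the adipose tissue of each rat (vertical axes, each with its own range) against the log2 of the summed level of 8 epididymis genes in the same array (horizontal axis); blue points are control rats and red points HDM rats. The rats at 11.68 and 11.90 on the horizontal axis have the lowest Ptger3 and Ptger4 signals of their group.

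Changes of Ptgdr (−0.19, SE 0.29), Ptgir (−0.19, SE 0.17) and Tbxa2r (−0.24, SE 0.34) were negative and not called. With arrays scaled to the median they were 0.11, 0.11 and 0.057. That scaling moves the change of every adipose probe by the same amount, so the turn of sign says nothing about these 3 genes. Ptgs1 was 1.10, 2.25, 1.99, 2.76 and 2.28 in HDM rats and 1.64, 2.66 and 2.52 in control rats, a change of −0.20 (SE 0.40), or 0.093 under that scaling. In each group rat 1 was the lowest. Ptgs2 was dim on all 8 adipose arrays, and no fold change is given.

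Whether the change of Ptger1 differed between lung and adipose tissue was tested within rats by limma on the lung minus adipose values. The limma adjusted p was 0.32 over all probes, so the difference was not called. None of the 10 genes was called in this comparison, beside 0.00219% of all probes (1 of 45598). The differences of the other members with a probe above background in both tissues lay between −0.54 for Ptges and 0.34 for Ptgdr. The adipose side of the Ptger1 difference rests on a probe that was well above background in 1 of 8 adipose samples. Neither its size nor a separation of the groups is therefore read from it.

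The larger differences were those between the tissues. The level of a probe in lung was set against the level of the same probe in the adipose tissue of the same rat, as the midpoint of the means of the HDM and the control rats, so that the 3 control rats count as much as the 5 HDM rats. Of the 10 genes, Ptger3 and Ptges were called as higher in adipose tissue and Tbxa2r as higher in lung, 3 of 10 genes beside 54.3% of all probes. The lung and adipose arrays lay on different slides, so tissue and slide cannot be told apart. Over all probes the median of lung minus adipose was −0.50, and 6790 probes were called higher in lung against 17963 higher in adipose tissue, a split that became 7766 against 7664 with quantile normalization over all 16 arrays.

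Ptger3 had a mean of −4.35 in lung (SD 0.37, n = 8) and 0.42 in adipose tissue (SD 0.34, n = 8). In each of the 8 rats it was higher in adipose tissue, with lung minus adipose of −4.47, −4.72, −4.41, −5.12 and −4.72 in HDM rats and −3.97, −5.79 and −4.89 in control rats. The midpoint of the group means was −4.79 (SE 0.20), or 27.6-fold, with a limma adjusted p of 1.34e-06, and the plain mean over the 8 rats was −4.76. Its weaker probe (A_44_P1082014) was well above background on all 8 adipose arrays and on no lung array, and was at least 32.5-fold higher in adipose tissue, a bound in which each lung array counts at the lowest signal marked as well above background there or at its own signal, whichever is larger.

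Ptges was higher in the adipose tissue of all 8 rats, with lung minus adipose of −2.65, −2.13, −3.59, −3.58 and −2.84 in HDM rats and −2.65, −2.37 and −2.22 in control rats. The midpoint of the group means was −2.69 (SE 0.19), or 6.44-fold, with a limma adjusted p of 1.50e-05, and the plain mean over the 8 rats was −2.75. Tbxa2r was higher in the lung of all 8 rats. Its lung minus adipose values were 1.74, 2.18, 1.21, 2.23 and 1.76 in HDM rats and 2.51, 1.25 and 1.69 in control rats, with a midpoint of 1.82 (SE 0.18) or 3.53-fold with a limma adjusted p of 8.33e-05. It was well above background on 6 of 8 adipose arrays. These 3 genes were called in every alternative that was run for the level, and also without both rats numbered 1.

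**Figure D5:**
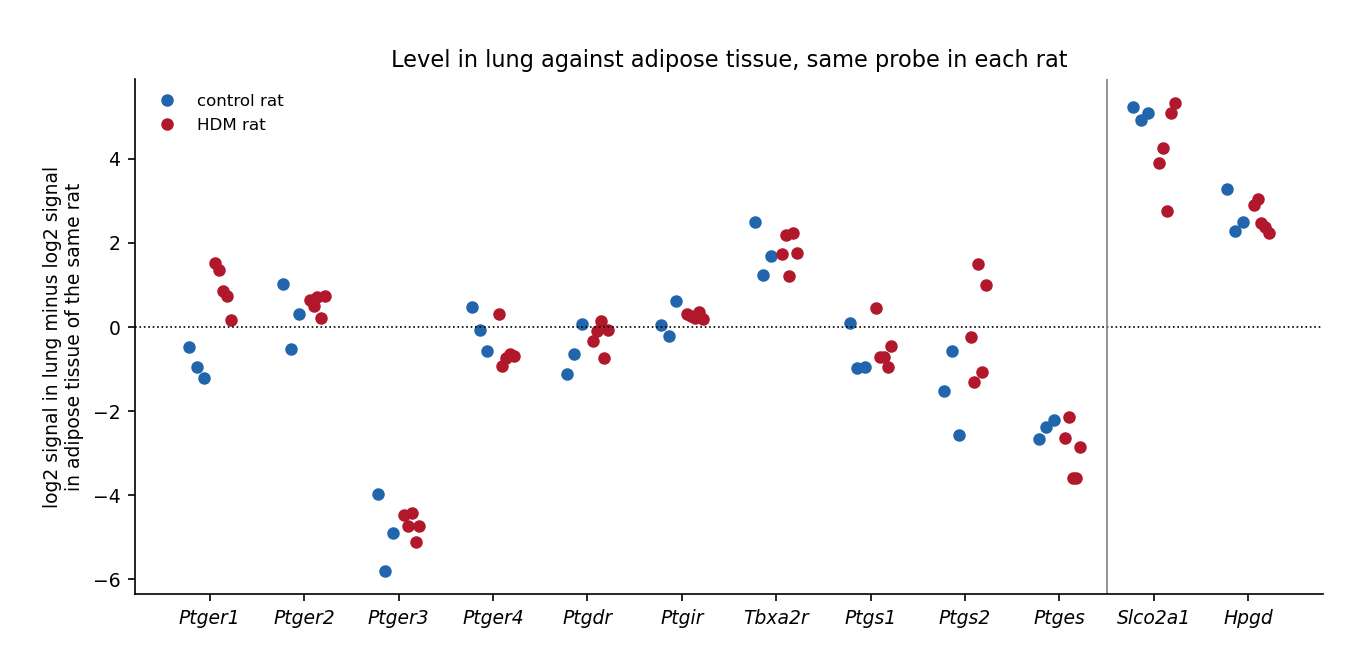
Log2 signal in lung minus log2 signal in adipose tissue of the same rat (vertical axis), by the same probe, for the 10 genes and, right of the grey line, for the transporter Slco2a1 and the catabolic enzyme Hpgd; blue points are control rats (n = 3) and red points HDM rats (n = 5). Ptger3 and Ptges lie below 0 and Tbxa2r, Slco2a1 and Hpgd above 0 in all 8 rats. Ptger1 and Ptgs2 were dim on most or all adipose arrays, so their points are not read as differences.

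For the remaining members the tissues were close, or probes of a gene disagreed. Ptgir differed by 0.21 (SE 0.11, 95% confidence interval −0.05 to 0.47), and Ptger2 by 0.42 (SE 0.17, limma adjusted p = 0.0621). Ptger4 differed by −0.30 (SE 0.18) by its brighter probe but was called higher in adipose tissue by the weaker one (A_44_P454281, −1.36, limma adjusted p = 0.00476). Ptgs1 differed by −0.54 (SE 0.20, limma adjusted p = 0.041), which is 1.45-fold and under the threshold. It passed without HDM rat 1 (−0.65, limma adjusted p = 0.0108) or without control rat 1 (−0.72, limma adjusted p = 0.019), the rats whose adipose tissue carried the epididymis genes, and without both (−0.83, limma adjusted p = 0.00211). It differed by −1.07 with its weaker probe (A_64_P375942), which was called. Ptger1 was well above background on only 1 adipose array by its brightest probe and on none by the weaker one, so no fold change is read for Ptger1. Its probes disagreed too, because the weaker one was called higher in lung (limma adjusted p = 0.000588) and the brightest was not called (0.911). Ptgs2 was dim on 7 of 8 lung arrays and on all 8 adipose arrays, and no difference is given. Ptgdr differed by −0.39 (SE 0.16, limma adjusted p = 0.0628).

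The wider pathway was described with 24 further genes, which are receptors, phospholipases, terminal synthases, transporters and catabolic enzymes. In lung, 2 of them were higher and 4 lower at an unadjusted limma p below 0.05, and none was called, with a median change of 0.031. In adipose tissue, 2 were higher, none lower and none called, with a median of 0.003, or 0.075 over the 22 of them well above background on at least 2 of 8 arrays. Among all named genes, 1052 were higher and 1058 lower in lung and 230 higher and 1095 lower in adipose tissue at that p.

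Among the 3 other receptors, none had an unadjusted p below 0.05. Ptgdr2 encodes CRTH2, the prostaglandin D2 receptor of type 2 lymphocytes and eosinophils. Its lung level was −4.60, −5.43, −5.37, −4.59 and −5.21 in HDM rats and −4.15, −4.53 and −4.77 in control rats, with a change of −0.56 (SE 0.26, limma adjusted p = 0.535). The groups overlapped, and 3 of the HDM rats and all control rats were well above background. In adipose tissue it changed by −0.28 (SE 0.42). Ptgfr, the prostaglandin F receptor, changed by 0.23 (SE 0.20) in lung and was dim on all 8 adipose arrays.

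Of the 8 genes of arachidonate release, Pla2g4a, the cytosolic phospholipase A2, was −1.62, −1.74, −1.72, −1.68 and −1.49 in the lungs of HDM rats and −1.74, −2.06 and −1.96 in those of control rats. All HDM rats lay above all control rats, by a narrow margin, with a change of 0.27 (SE 0.12, limma adjusted p = 0.482) that ranged from 0.16 to 0.43 over the alternatives. Of the 8 synthases, 4 had an unadjusted p below 0.05 in lung. Ptges3, a cytosolic synthase of prostaglandin E2 that is also a chaperone, had a change of −0.32 (limma adjusted p = 0.438), with all HDM rats below all control rats, and ranged from −0.48 to −0.20 over the alternatives. Ptgds, the lipocalin-type prostaglandin D synthase, and Ptgis, the prostacyclin synthase, had changes of −0.42 and −0.33. Prxl2b, a prostaglandin F synthase, had a change of 0.39 in lung and 0.73 in adipose tissue (limma adjusted p = 0.383 and 0.451), and the latter ranged from 0.41 to 1.02.

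Of the 5 genes of transport and breakdown, Abcc4, an exporter of prostanoids and cyclic AMP, was 1.27, 1.39, 0.92, 1.77 and 1.57 in the lungs of HDM rats and 2.00, 1.87 and 1.83 in those of control rats. All HDM rats lay below all control rats, with a change of −0.51 (SE 0.19, limma adjusted p = 0.381) that ranged from −0.70 to −0.33. Slco2a1, the uptake transporter for prostaglandins, had a change of 0.0093 (SE 0.26) in lung and of 0.83 (SE 0.34, limma adjusted p = 0.478) in adipose tissue. The adipose value was 0.084 with the slide row as a block, and ranged up to 1.17 over the alternatives. Hpgd, which inactivates prostaglandins, changed by 0.13 (SE 0.12) in lung and 0.20 (SE 0.27) in adipose tissue.

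Between the tissues, 6 of these 24 genes were called higher in lung, 11 higher in adipose tissue and 7 were not called, beside 54.3% of all probes called, of which 6790 were higher in lung and 17963 in adipose tissue. With quantile normalization, where the split of all probes was 7766 against 7664, the counts were again 6 and 11. Among the 6, Pla2g10 and Ptgfr were dim on all 8 adipose arrays. With dim arrays counted as for the weaker Ptger3 probe, they were at least 1.17-fold and 1.18-fold higher in lung, under the 1.5-fold threshold. Slco2a1 and Hpgd were higher in the lung of all 8 rats, with midpoints of 4.68 (SE 0.28), or 25.6-fold, and 2.64 (SE 0.16), or 6.25-fold, with limma adjusted p of 7.16e-06 and 6.72e-06. The plain means over the 8 rats were 4.58 and 2.63. Of the synthases, Cbr1, Prxl2b, Ptgis, Hpgds and Ptgds were called higher in adipose tissue, as were the phospholipases Pla2g2a, Pla2g5 and Pla2g6 and the phospholipase inhibitor Anxa1. The phospholipases did not all go this way. Pla2g2d was called higher in lung and was higher there in all 8 rats, and Pla2g10, dim in adipose tissue, was among the 6 genes called higher in lung. Tbxas1, the thromboxane synthase, was called higher in lung (0.70, SE 0.19, 1.62-fold), as was the thromboxane receptor described above. Without both rats numbered 1, the calls of Ptgds (−2.24, SE 1.00, limma adjusted p = 0.106) and Tbxas1 (0.47, SE 0.14) were lost, and Abcc4 (1.73), Pla2g4a (−0.90) and Ptgfrn (−0.60) were called. Ptgds varied most among adipose samples, with 3.84, −0.79, −2.71, 0.02 and 1.66 in HDM rats and 6.54, −0.41 and 5.66 in control rats. Lung minus adipose for Ptgds was −5.47, −0.65, 1.67, −1.48 and −3.19 in HDM rats and −7.64, −0.52 and −6.63 in control rats, so HDM rat 3 was higher in lung. Its 3 highest adipose samples, from HDM rat 1 and control rats 1 and 3, were also the 3 highest in the summed level of the epididymis genes.

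Because several of the receptors act through cyclic AMP, 10 genes that respond to it were described too. None was called in either tissue, and the median change was −0.07 in lung and −0.07 in adipose tissue. Nr4a3, an orphan nuclear receptor and immediate early gene, had the lowest p of the pathway and cyclic AMP genes named in lung. It was −4.17, −5.86, −4.58, −4.94 and −4.25 in HDM rats and −2.56, −2.99 and −3.39 in control rats, with 1 HDM rat not well above background. All HDM rats lay below all control rats, and the change of −1.78 (SE 0.40) had a limma adjusted p of 0.109. It was called with dim probes left out (adjusted p = 0.0385 in limma) and with adjustment over probes past 1.5-fold (0.0123). After normexp with quantile normalization the change was −0.56, under the 1.5-fold threshold, with a limma adjusted p of 0.00987. In the other alternatives it was not called, with changes down to −1.99, and the limma adjusted p reached 0.77 with the slide row as a block. Nr4a1, of the same family, had a change in the opposite direction, 0.78 (SE 0.33, limma adjusted p = 0.472), with 2.46, 2.51, 2.31, 2.31 and 3.59 in HDM rats and 1.98, 2.19 and 1.38 in control rats, and HDM rat 5 as the highest. Over the alternatives this change ranged from 0.55 to 1.74.

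Genes whose level followed that of Ptger1 over the 8 lung arrays were sought among 11911 named genes well above background on all of them. The 5 with the highest Pearson correlation were Prr22 (0.945), Kcnk13 (0.940), Parvg (0.933), Adgrg5 (0.925) and Tagap (0.920). These values describe 8 arrays that share the difference between HDM and control rats. They are the highest of 11911 values over only 8 arrays, and how many as high would arise by chance was not tested. Ptger1 in adipose tissue and Ptgs2 in both tissues were not well above background on all arrays and were not used for this.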

How the data were processed

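Lung and adipose tissue of 8 rats were measured on 16 arrays, mapped to rat and tissue by their labels. The authors deposited spot intensities on a linear scale from Agilent Feature Extraction 12.0.3.1, background-subtracted and not normalized between arrays, and a table of log2 values whose scaling is not given in the sources used here. The deposited log2 values of the member probes lay within 0.0409 of the values used here after centering on the median of each probe in a tissue, and 39 cells of that table were not numbers and were treated as missing. For the values used here, log2 intensities without control and outlier spots were averaged by probe and set relative to the array's 75th percentile, with dim probes kept. Tests were run with limma 3.58.1 (R 4.3.3), and figures were drawn with matplotlib 3.10.9. A probe counts as well above background when the file marks its spots so, on average 0.5 of them or more. No spot was saturated, and the highest correlation between arrays was 0.9898, so no array was a copy of another. The fit was tested on simulated data.

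Probes were named through RefSeq accessions and a table of 47357 rat genes. All members are named. Of the other pathway and cyclic AMP genes, those with an unadjusted limma p below 0.05 are named, at most 12 per tissue. Ptgfr and Ptgdr2 are always named. Hpgd, Slco2a1, Hdc, Kit, Tpsb2, Siglec5, Ngp and the genes of the tissue comparison were added after their values were seen. The marker lists hold genes of mast cells, neutrophils, eosinophils, macrophages, platelets, smooth muscle, endothelium, lung epithelium, adipocytes and epididymis. Their median changes in lung and adipose tissue, over genes well above background on at least 2 of 8 arrays (a minimum chosen after seeing the data), were −0.15 and −0.27 for smooth muscle, −0.06 and 0.05 for endothelium and 0.0084 and 0.54 for macrophages. In adipose tissue they were 2.16 for neutrophils, 0.069 for eosinophils, 0.09 for mast cells, −0.048 for platelets, −0.21 for lung epithelium, 0.28 for adipocytes and −1.97 for epididymis, and in lung 0.60 for adipocytes and 0.35 for epididymis. The members and the lists were chosen with earlier results of these data known. Alternatives covered the test (the methods' unpaired t-test), the order of filter and adjustment, the scaling, the background correction, dim and outlier spots, array weights, the probe, the row of the slide, the replicate number and each rat left out.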

Additional observations from a re-analysis of the deposited data

Results flagged for a closer look

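A total of 34 groups of 5 HDM rats were examined for a sample far from the others, and about 1 in 20 such groups is marked by chance. In lung, Nr4a1 was 3.59 in HDM rat 5, where the next value was 2.51 and the lowest 2.31. In adipose tissue, Ptger3 was 0.027 in HDM rat 1 with the other HDM rats from 0.47 to 0.64, and Ptger4 was 1.33 in the same sample, where the next value was 2.27 and the highest 2.52. This sample is the HDM sample that carried the epididymis genes, and the part of these in both values was not tested. Tbxa2r was −4.17 in the adipose tissue of HDM rat 2, where the next value was −3.70 and the highest −3.56, and this array also had the most outlier spots of the adipose arrays (1224).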

How the results depend on the processing

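No alternative that was run called a member for the HDM change of either tissue or for the difference between these changes. Alternatives were run 1 at a time. The weaker Ptger1 probe, whose lung change was past 1.5-fold, was therefore not read under the adjustment over probes past 1.5-fold. Ptger3, Ptges and Tbxa2r kept their call for the level in all of theirs. Leaving out both rats numbered 1 for the level was chosen after seeing the data. Leaving out 1 rat gave 3 or 4 called members for the level, where the fourth was Ptgs1 (without HDM rat 1 or control rat 1), Ptger2 (without control rat 2) or the dim Ptgs2 (without HDM rat 3). The HDM changes of Ptges in both tissues and of Ptger1 and Ptger2 in lung kept their sign under all alternatives. Those of Tbxa2r in lung and Ptger4 in adipose tissue did so too, and the lung change of Ptges went down to 0.011. The deposited log2 table, the methods' t-test, outlier spots kept and scaling to Gapdh and Hprt1 reversed no value. Genes that were dim on all 8 arrays of a tissue were left out. Scaling to the array median moves every change in a tissue by the same amount, so reversals under it say nothing about single genes. The cause of the other reversals below was not tested. No reversed value was called.

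Counts of called probes moved most. Adjusting only over probes past 1.5-fold gave 1329 in lung and 28 in adipose tissue. With dim probes left out, 751 were called in lung, 5 in adipose tissue, 8 in the difference between the changes and 13942 in the level, over fewer probes tested, and 1 member had an unadjusted p below 0.05 in adipose tissue. Array weights gave 705 and 338 probes and left 1 member with an unadjusted p below 0.05 in lung, with adipose changes of −0.28 for Ptger2 and −0.15 for Ptger3. Quantile normalization gave 7 probes in adipose tissue, 2 in the difference and 15430 in the level, and 1 member at that p in adipose tissue, with 0.18 for Tbxa2r and 0.13 for Ptgdr2. Scaling to the array median gave 3 probes in adipose tissue and 2 in the difference, 1 member at that p, and adipose changes of 0.11 for Ptgdr, 0.11 for Ptgir, 0.057 for Tbxa2r, 0.093 for Ptgs1 and 0.017 for Ptgdr2. Normexp with quantile normalization left 1 member at that p in each tissue and 1 probe called in adipose tissue, with lung changes of −0.041 for Ptger3, 0.015 for Ptger4 and −0.022 for Ptgfr and an adipose change of 0.017 for Tbxa2r. The weaker Ptgs1 probe gave 0.017 in lung.

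With the slide row as a block, 25 probes were called in lung and 1 in adipose tissue, and 0 members had an unadjusted p below 0.05 in either. Row 2 alone (HDM rat 5 against the 3 control rats, where the lone HDM rat is assumed to vary like the controls) called 0 probes in lung and left 1 member (lung) and 0 members (adipose tissue) at that p. Both gave lung changes of 0.045 for Ptger4, −0.032 for Ptgdr, 0.15 for Ptgs1 and −0.013 for Ptgfr, and adipose changes of −0.078 for Ptger2, 0.0041 for Ptgs1 and 0.58 for Ptgdr2. The replicate numbers of HDM and control rats mark different animals, and deviations of same-numbered rats correlated at −0.06, −0.08 and 0.05 (lung) and at 0.59, 0.14 and 0.097 (adipose tissue), so the numbers were not taken to pair the rats. With the number as a replicate block, 0 probes were called in lung, and in each tissue 1 member had an unadjusted p below 0.05.

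Leaving out 1 rat at a time, 100 to 333 probes were called in lung and 0 to 1 in the difference, and 0 to 3 members (lung) and 1 to 3 members (adipose tissue) had an unadjusted p below 0.05. Lung changes ranged from −0.15 to 0.0087 for Ptgir and from −0.13 to 0.0084 for Ptgs1. Adipose changes ranged from −0.23 to 0.45 for Ptger2, −0.13 to 0.39 for Ptger3, −0.46 to 0.091 for Ptgdr, −0.67 to 0.095 for Tbxa2r and −0.52 to 0.042 for Ptgs1. The level difference of Ptger1 ranged from −0.077 to 0.12. Neither its size nor its sign is read, because this probe was well above background on only 1 adipose array. For the difference between the changes the ranges were −0.10 to 0.67 for Ptger2, −0.26 to 0.65 for Ptger3, −0.069 to 0.34 for Ptgir, −0.28 to 0.35 for Tbxa2r and −0.098 to 0.49 for Ptgs1. Quantile normalization gave −0.16 for Ptger2 and −0.46 for Tbxa2r in this difference, and scaling to the array median gave −0.054 for Ptger2, −0.15 for Ptger3, −0.0071 for Ptgdr, −0.24 for Ptgir, −0.34 for Tbxa2r and −0.22 for Ptgs1. Without both rats numbered 1, adipose changes were −0.20 for Ptger2, −0.015 for Ptger3 and 0.016 for Ptgdr. Dim signals limit Ptger1 and Ptgs2 in adipose tissue and Ptgs2 in lung.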
